A study of Caenorhabditis elegans with 2 samples.

Results

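The genes bet-1 and bet-2 encode the BET-type bromodomain proteins of the nematode Caenorhabditis elegans, and the peaks near them were taken from a ChIP-seq experiment on the DNA-binding protein PEB-1. They are 2 of the 19973 protein-coding genes of the annotation, and they were picked by name because bet-2 stood high in the list of thresholded peaks. Ranks and signals at these genes are therefore the values that chose them, and they are given as a description. The material was whole L2 larvae of mixed sex from the strain OP86, which carries unc-119(ed3) and the integrated transgene wgIs86 for eGFP-tagged PEB-1. There was 1 group of 2 biological replicates and no comparison group. All tissues of the larva were mixed, so a peak gives no cell type. The sources used here do not say how the level of the tagged protein compares with the native one.

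Bromodomains are protein folds that bind acetylated lysines, above all on histone tails. BET proteins carry a pair of bromodomains and an extra-terminal domain, and in mammals they bring transcription elongation factors to acetylated chromatin. In C. elegans bet-1 is known for keeping cells of several lineages in their fate, downstream of the MYST acetyltransferases MYS-1 and MYS-2, while less is known of bet-2. PEB-1 is a FLYWCH zinc-finger protein first described at an enhancer of myo-2, a myosin gene of pharyngeal muscle.

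Peaks were assigned to a gene when their summit lay from 5000 bp upstream of its start to 1000 bp downstream of its end. The deposited thresholded list held 160 peaks, which were the 160 highest of the pooled list, and the pooled list and the list of each replicate held 30000 candidate peaks each. Rank 1 is the highest signal, the authors' peak height, and ranks are compared only between lists of equal length. The median signal was 12.8 in the pooled list, 7.63 in that of replicate 1 and 6.92 in that of replicate 2. The thresholded list ended at rank 160 with a signal of 35.43, and the first pooled peak outside it, at rank 161, had 35.38. In the bet-2 window there was 1 thresholded peak, and in the bet-1 window there were 0. Of all protein-coding genes, 237 (1.19%) had a thresholded summit in the same window, 77 of the 2731 X-linked ones (2.82%) and 55 of the 2157 with a window at least as long as that of bet-2 (2.55%). Since bet-2 was chosen for its peak, nothing is read from its place among them.

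bet-2 (WBGene00010199, X:10569273-10575725, plus strand) had its thresholded peak at X:10568681-10569036, in intergenic sequence 414 bp upstream of the annotated start. All 4 of its annotated transcripts share that 1 start, which is also the first coding base, so the distance is to the start codon and not to a mapped transcription start. The signal was 94.2 in the pooled list (rank 7), 78.7 in the list of replicate 1 (rank 6) and 25.2 in that of replicate 2 (rank 14). Both replicates thus placed it among their highest 20 peaks, which held for 11 of the 160 thresholded peaks. Relative to the median of its own list the peak was 7.38 times as high in the pooled data, 10.3 times in replicate 1 and 3.64 times in replicate 2. These multiples depend on the spread of each list. The highest signal of any peak was 202.1 in the pooled list, 154.1 in replicate 1 and 54.2 in replicate 2. Of the 6 peaks that ranked above it, 4 lay within 20000 bp of peb-1 itself. With the 8 thresholded peaks of that neighbourhood left out, the bet-2 peak ranked 3 of all and 1 on the X chromosome.

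The sequence around both replicate summits shows where the letters searched for lie. The span X:10568799-10569084 (ce11, plus strand, the strand of bet-2) is printed from 5′ to 3′, with capitals for copies of the PEB-1 core word DTGCCR (D is A, G or T; R is A or G) and of GAGAGA, either strand, so that TCTCTC is GAGAGA on the minus strand.
bet-2 peak: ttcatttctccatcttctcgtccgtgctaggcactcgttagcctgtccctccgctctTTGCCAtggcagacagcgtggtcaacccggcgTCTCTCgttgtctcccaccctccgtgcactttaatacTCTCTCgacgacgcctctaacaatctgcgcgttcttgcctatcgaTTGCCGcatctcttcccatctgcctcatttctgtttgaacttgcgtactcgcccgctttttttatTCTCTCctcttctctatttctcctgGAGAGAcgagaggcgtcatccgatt

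The core word TTGCCA lay on the summit of the pooled and replicate 1 peaks (X:10568856-10568861), with its first base 3 bp before the summit. In its context it also read as the longer consensus YDTGCCRW (Y is C or T; W is A or T), as TTTGCCAT. Its centre was 0.5 bp from the summit, against a median of 29 bp (interquartile range 13.25 to 59) over the 104 thresholded peaks with a core word within 100 bp, and 3 of those, bet-2 included, were as close or closer. The core word was found within 100 bp of the summit in 104 of the 160 thresholded peaks (65%), against 35.0% of 29815 pooled candidates that overlap none of them. YDTGCCRW, which contains the core word, was found in 20% against 13.4%. The next letters of the span complete an inverted repeat, TGCCATGGCA (X:10568857-10568866), which was noticed after its sequence was read. Within 100 bp of the summit it was present in 2 of the 29815 other candidates. Among the 160 thresholded peaks only that of bet-2 held it. Since the repeat was taken from that very peak, its counts in the lists are not compared.

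The bet-2 peak also held GAGAGA, a word that was present in 57.5% of thresholded peaks against 13.2% of the other candidates. Within 100 bp of its summit there were 2 copies, as in 50 of the 160 thresholded peaks (31.3%) that had at least as many. Over the stretch covered by these peaks 5 copies lay between 118 bp before and 201 bp after the summit, 4 of them on the minus strand. The 201 bp centred on the summit were 57.7% G and C, against a median of 49.8% (interquartile range 45.8 to 54.7) for thresholded peaks and 37.3% for the other candidates. They were 68.7% C and T on the plus strand. A skew between pyrimidines and purines of at least that size, to either side, was seen in 11 of the 160 peaks, whose median was 58.2%. Both words and the base composition differ between the lists together, and the part of base composition in the word counts was not tested.

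The replicates did not place the bet-2 summit at the same base. In replicate 1 the summit was that of the pooled peak (X:10568677-10569040, 414 bp upstream). In replicate 2 the peak spanned X:10568822-10569185, with its summit 269 bp upstream of the start and 145 bp closer to the gene than in replicate 1. The replicate peaks still overlapped by 219 bp. Across the 149 thresholded peaks that overlapped a peak of both replicates, the replicate summits lay a median of 46 bp apart (interquartile range 17 to 100), and 19 pairs (12.8%) were 145 bp or more apart. Among the 20 highest thresholded peaks the median was 40.5 bp, and 2 pairs were that far apart, that of bet-2 included. The core word within 100 bp of the replicate 2 summit was the second one, TTGCCG (X:10568970-10568975), whose first base was 34 bp before it. No copy of YDTGCCRW or of the inverted repeat lay within 100 bp of that summit. A further pooled candidate of rank 2940 (signal 18.6) overlapped the thresholded peak by 149 bp. Its summit lay 207 bp upstream of the start, 62 bp from the replicate 2 summit. The pooled list thus held a high and a low candidate in the stretch that replicate 2 gave as 1 peak.

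**Figure D1:**
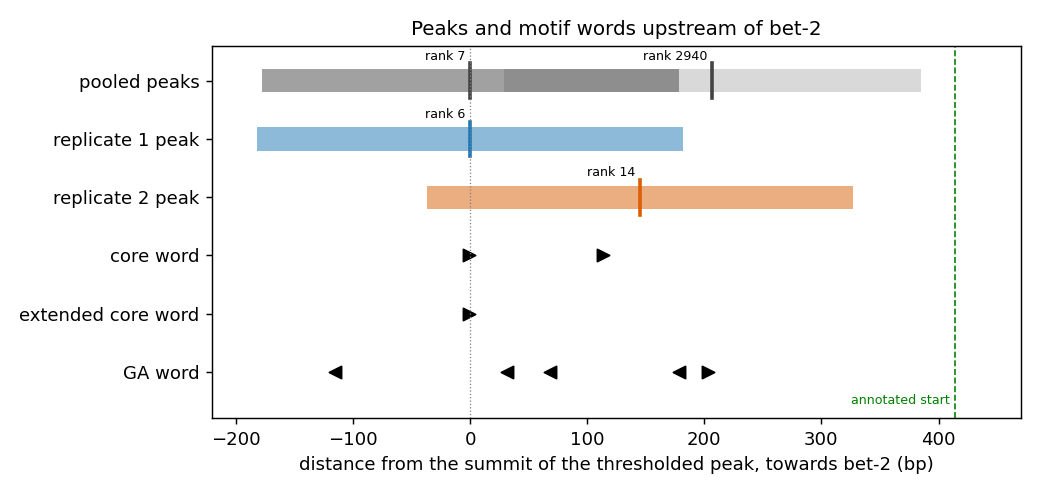
Peaks (bars) with their summits (vertical marks) and the words searched (triangles, pointing along their strand) against distance in bp from the thresholded summit, towards bet-2. The pooled and replicate 1 summits fall on a core word, the replicate 2 summit lies 145 bp nearer the annotated start, and GA words (GAGAGA) lie on both sides.

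Apart from the main peak, the bet-2 window held candidates that differed between the lists. The pooled list held 7 candidates there, replicate 1 held 2 and replicate 2 held 6. That is 0.562 candidates per kb of window in the pooled list, against a median of 0.284 over protein-coding genes, 0.161 against 0.283 in replicate 1, and 0.482 against 0.283 in replicate 2. Besides the peak and the candidate of rank 2940, the 5 pooled candidates ranked between 15809 and 28980, with signals of 10.1 to 12.6, and none of these overlapped candidates of both replicates. One of them, 4188 bp upstream, fell in a coding exon of the neighbouring gene F59F5.7 and had the same summit in replicate 1 (rank 14982), with no replicate 2 peak over it. In replicate 2 the next highest candidate after the main peak was inside bet-2, in a coding exon 4542 bp from the start (rank 350, signal 14.0, 2.02 times the list median). It overlapped a pooled candidate of rank 15809 and no candidate of replicate 1. A candidate in an intron 1384 bp from the start ranked 8139 in replicate 2, overlapped a pooled one of rank 20867 and was likewise not in the list of replicate 1.

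**Figure D2:**
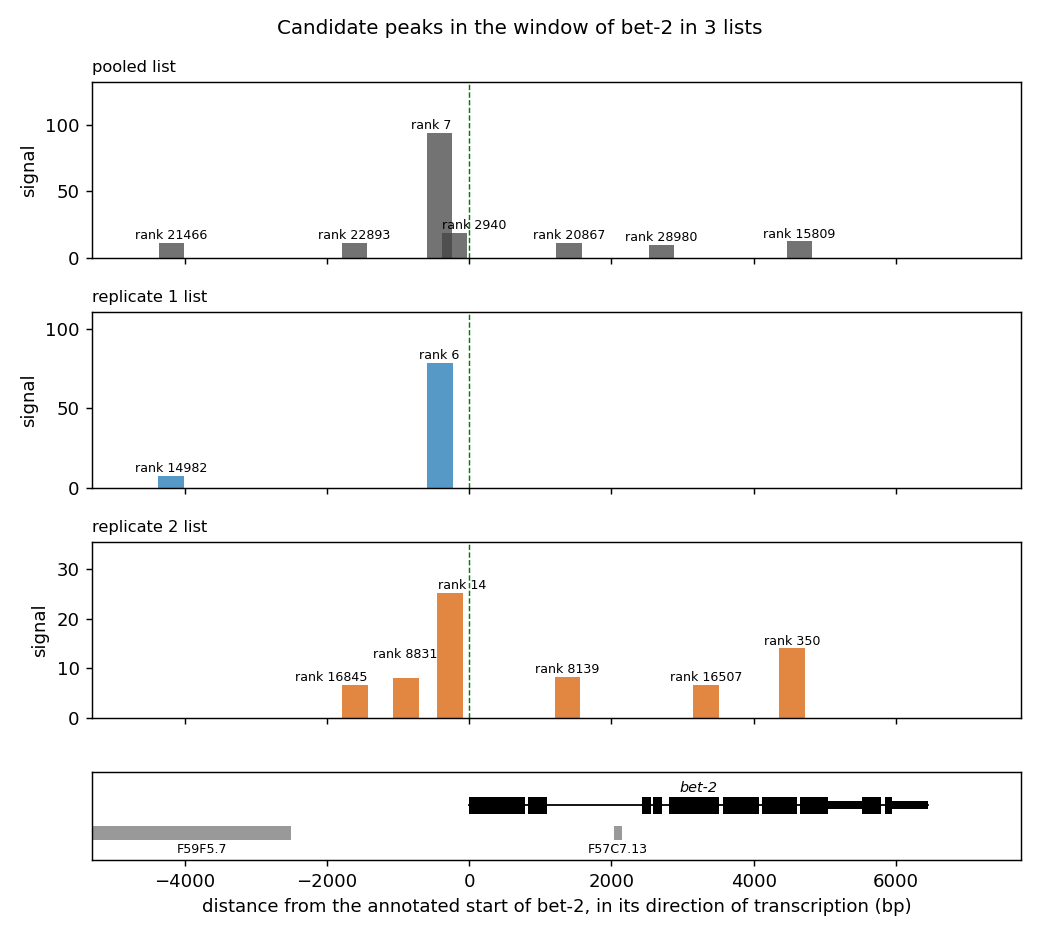
Signal (y axis, one scale per panel) of each candidate peak in the bet-2 window, at its width and distance in bp from the annotated start (dashed line), with coding exons (tall boxes), untranslated exon parts (low boxes) and neighbouring genes in grey. The peak upstream of the start stands above the rest in all 3 lists at ranks 7, 6 and 14, and a candidate inside the gene, at rank 350, is in the list of replicate 2 without a counterpart in replicate 1.

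The summit of the bet-2 peak lay in the window of 1 protein-coding gene, bet-2 itself. Upstream, the end of F59F5.7 (X:10559503-10566765, plus strand) was 2094 bp from the summit. Downstream of bet-2, nhx-5, which encodes a sodium/proton exchanger (X:10576953-10581044, plus strand), was 8094 bp from it. A pair of non-coding RNA genes named F57C7.13, 1 on each strand at X:10571305-10571415, lies inside bet-2, 2446 bp from the summit. The nearest other thresholded peaks were 133729 bp upstream of the bet-2 start (rank 155) and 68307 bp downstream of it (rank 90). These gaps were not compared with the spacing of the 61 thresholded peaks of the X chromosome.

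bet-1 (WBGene00022473, I:4525961-4534805, minus strand) had no thresholded peak, and its candidates were low in the pooled list. Its 8 annotated transcripts begin at 6 positions within 7 bp, so every distance holds for all of them to within 7 bp. The first coding base lies 7 bp from the start, so these too are nearly distances to the start codon. The best pooled candidate lay in intergenic sequence 1381 bp upstream of the start (I:4536008-4536363, rank 7573), with a signal of 15.3, 1.2 times the list median. Of all protein-coding genes, 47.0% had a best pooled rank at least as high in their own windows. In replicate 1 the same place held a candidate 1396 bp upstream at rank 1537 (signal 13.5, 1.77 times the median), and 11.6% of protein-coding genes had one at least as high. In replicate 2 the overlapping candidate ranked 29665 (signal 5.21), near the end of the list, and it shared 22 bp with the pooled one, its summit lying 1043 bp upstream. The best replicate 2 candidate inside the window was elsewhere, in a coding exon 3127 bp from the start (rank 13107, signal 7.25), and 67.8% of protein-coding genes had one at least as high. The best bet-1 candidate was thus mainly a candidate of replicate 1. The shares of protein-coding genes given for bet-1 were not matched for window length, and a longer window can hold more candidates. The bet-1 window was 14845 bp long, longer than 93.6% of the windows of protein-coding genes, whose median was 8027 bp.

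Within 100 bp of the summit of that bet-1 candidate there was no core word and no YDTGCCRW, while GAGAGA occurred in 9 copies, overlapping ones counted, against 2 at the bet-2 summit. Its 201 bp were 52.2% G and C, and the richer of purine and pyrimidine made up 72.1% of the plus strand. No match says only that these letters are not in this stretch.

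The other bet-1 candidates lay inside the gene, at its neighbour or in intergenic sequence upstream. The last was a replicate 2 candidate of rank 19941 (signal 6.23), 768 bp upstream of the start. No pooled or replicate 1 candidate overlapped it. A pooled candidate in a coding exon 4890 bp from the start ranked 14026 (signal 13.03), and it overlapped a candidate of rank 11014 in replicate 1 and one of rank 20265 in replicate 2. Another in an intron, 5625 bp from the start, ranked 24847 and overlapped none in either replicate. Replicate 1 had a candidate of rank 5467 in a coding exon of zig-9 (I:4537447-4539729, minus strand), the next gene upstream and one of the zig family of immunoglobulin-domain genes. The best pooled candidate lay 1261 bp from zig-9, downstream of it, and 3543 bp from the zig-9 start. In all the window held 3 pooled candidates, 3 of replicate 1 and 4 of replicate 2. That is 0.202 per kb in the pooled list, 0.202 in replicate 1 and 0.269 in replicate 2. bet-1 thus held fewer candidates per kb than bet-2 in the pooled and replicate 2 lists and more in that of replicate 1.

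**Figure D3:**
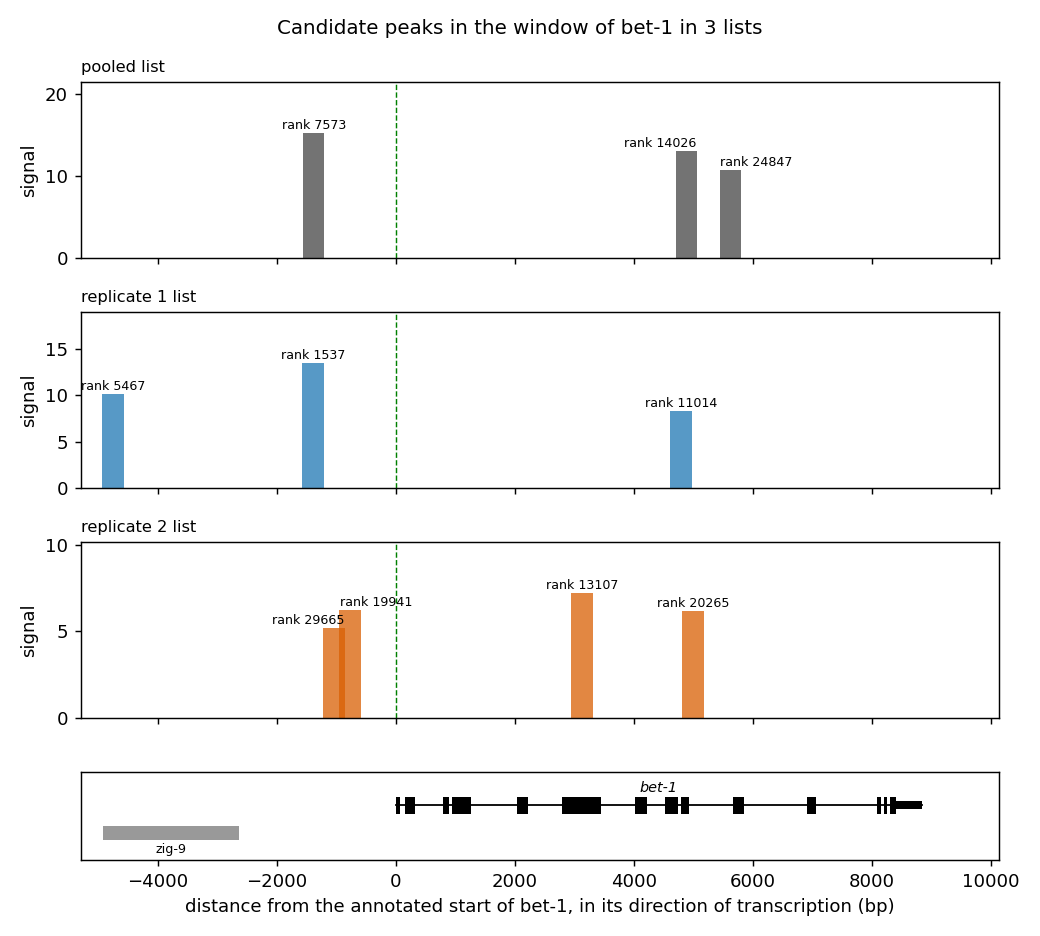
Signal (y axis, one scale per panel) of each candidate peak in the bet-1 window against distance in bp from the annotated start (dashed line), drawn as for bet-2. The highest signal is 15.3 in the pooled list, at rank 7573, and the highest candidates of the 2 replicates, at ranks 1537 and 13107, are at different places.

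The edge of the window matters little for the thresholded list and more for the candidates of bet-1. The nearest thresholded peaks were 166558 bp upstream of the bet-1 start (rank 122) and 236727 bp downstream of it (rank 123). Past the end of the gene, 1682 bp outside the window and 11526 bp from the start, a pooled candidate ranked 798 (signal 23.5), higher than any inside it. Its summit was 466 bp from the neighbouring gene Y119C1B.12 (I:4521535-4522813, plus strand) and 2682 bp from bet-1. It ranked 131 in replicate 2 (signal 15.5, summit 11514 bp from the start) and 15677 in replicate 1 (signal 7.45, summit 11539 bp from the start). That candidate ranked higher in replicate 2, whereas the best one upstream of bet-1 ranked higher in replicate 1. On the upstream side, 176 bp outside the window, replicate 2 had a candidate of rank 3626 (signal 9.89), also higher than any of its candidates inside. For bet-2 the nearest pooled candidates outside the window ranked 4593 upstream and 14573 downstream.

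Genes for bromodomain proteins and histone acetylation were chosen by hand with earlier results of these data known. Of the 24 matched ones, 4 had a thresholded peak (16.7%), against 1.19% of protein-coding genes. Without bet-1 and bet-2 it was 3 of 22 (13.6%). All 4 were bromodomain genes, bet-2 and 3 of the other 11 on the list. The median best pooled rank was 4879.5 for the list and 8280 for all protein-coding genes, those with no candidate counted last. Windows of the listed genes were not matched in length to those of all genes. The list includes F13C5.2 but not K07E3.1, F59E12.1 or C54G4.2, which RefSeq also names as bromodomain genes and which had no thresholded peak. Its shares are therefore a description, and no enrichment is read from them. F13C5.2 (WBGene00017423, X:593960-596293, plus strand), whose RefSeq product is a bromo domain-containing protein, came next after bet-2. Its peak (X:593354-593709) ranked 20 with a signal of 71.4, in intergenic sequence 428 bp upstream of the annotated start. That start lies 20 bp before the first coding base, whereas the start of bet-2 is its first coding base. The F13C5.2 peak ranked 11 in replicate 1 and 1523 in replicate 2, so the replicates differed far more there than at bet-2. cbp-1 (WBGene00000366, III:9766509-9774825, plus strand), the CBP/p300 acetyltransferase, had a peak 882 bp upstream (III:9765449-9765804, rank 125, signal 38.0). That peak ranked 156 in replicate 1 and 10110 in replicate 2, and its summit lay in the windows of 2 protein-coding genes.

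The summits of these other upstream peaks are shown for comparison with that of bet-2, over X:593472-593592 and III:9765567-9765687 (ce11, plus strand), with the same words in capitals. F13C5.2 had 2 core words and 1 GAGAGA within 100 bp of its summit, and cbp-1 had 1 core word, 72 bp before the summit and outside the stretch shown, and 2 copies of GAGAGA.
F13C5.2 summit: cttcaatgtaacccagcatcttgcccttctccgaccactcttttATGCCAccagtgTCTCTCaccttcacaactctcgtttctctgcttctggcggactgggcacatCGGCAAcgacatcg
cbp-1 summit: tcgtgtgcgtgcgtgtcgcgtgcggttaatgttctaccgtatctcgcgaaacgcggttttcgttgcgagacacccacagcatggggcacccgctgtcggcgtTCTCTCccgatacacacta

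In these 121 bp the core words of F13C5.2 are ATGCCA, whose first base lay 16 bp before the summit, and TTGCCG on the minus strand. Neither stretch holds the inverted repeat, which was read from the bet-2 peak and is rare, so nothing is read from its absence. F13C5.2 and cbp-1 were 54.7% and 56.7% G and C within 100 bp of the summit, against 57.7% for bet-2.

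The fourth gene of the list, pbrm-1, encodes a polybromo subunit of the SWI/SNF chromatin remodeller, and its peak was inside the gene. The peak (I:7500558-7500913, rank 86, signal 42.8) lay in an intron 5300 bp from the gene start and 581 bp upstream of the nearest of 4 annotated transcript starts. It ranked 92 in replicate 1 and 75 in replicate 2, the pair of ranks with the smallest ratio among the 4 genes, and held 1 core word, 27 bp after the summit, and no GAGAGA within 100 bp. Among the 160 highest peaks of replicate 1 the same 4 genes were found, and among those of replicate 2 bet-2 and pbrm-1.

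cbp-1 and pcaf-1, which are acetyltransferase genes too, were counted with the bromodomain genes. Of the other listed genes, 0 of 4 for acetyltransferases (mys-1, mys-2, mys-4 and hat-1), 0 of 4 for deacetylases and 0 of 3 for the elongation kinase and its cyclins had a thresholded peak. Beside the 1.19% of all protein-coding genes these zeros are near the background share, and nothing is read from them. The best pooled ranks among the listed genes without one were 386 for hat-1, a histone acetyltransferase gene, and 1710 for nurf-1, of the NURF remodeller. They were followed by 1787 for mys-2, 2257 for lex-1, an AAA ATPase with a bromodomain, and 3303 for swsn-4, the SWI/SNF ATPase. The best candidate in the hat-1 window ranked 368 in replicate 1 and 12696 in replicate 2, and that in the nurf-1 window 424 and 4173. Unlike the ranks given for the thresholded peaks, these need not be of the same peak in each list. The cyclin genes cit-1.1 and cit-1.2 lie side by side and share their best candidate (rank 26516). Ranks for mys-1 and mys-2, which act upstream of bet-1, were 4420 and 1787 in the pooled list, and both thus stood above the 7573 of bet-1 without reaching the thresholded list. Of 27 listed symbols, 3 (flt-1, tag-298 and mys-3) had no match.

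**Figure D4:**
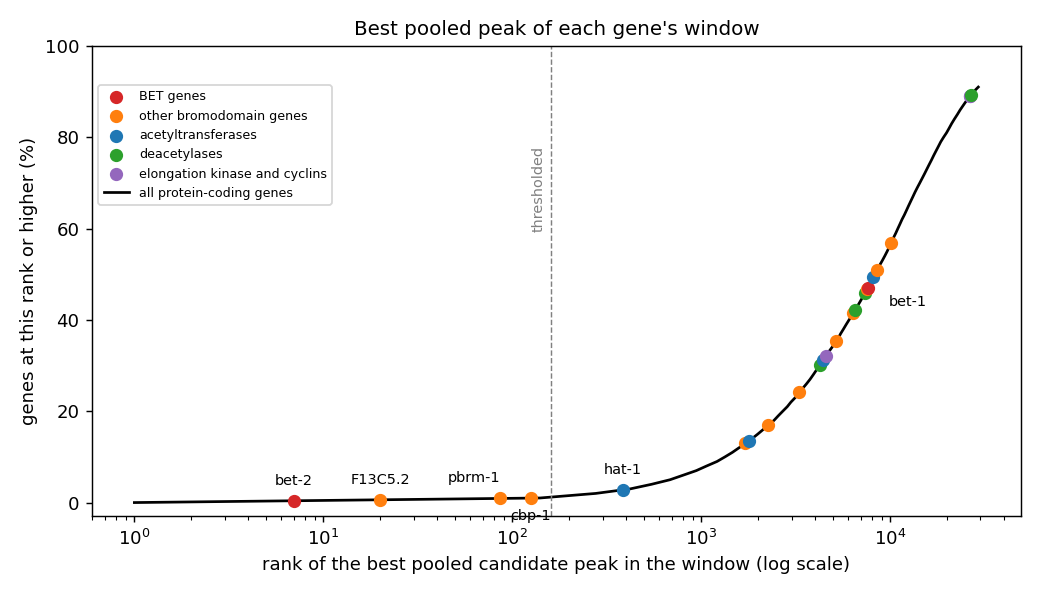
Percentage of protein-coding genes (y axis) whose best pooled candidate ranks at or above the value on the x axis (log scale), as a line, with the listed genes as points on it by class. bet-2, F13C5.2, pbrm-1 and cbp-1 lie left of the dashed line that ends the thresholded list, and bet-1 lies where 47.0% of genes have been passed.

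By the ranks of the peak in the pooled and both replicate lists, the genes most like bet-2 were lin-42, dct-11, puf-9, pqn-41 and sup-26, of 220 genes with such a peak in all 3 lists. The measure was the distance of the log10 ranks, 0.27 for lin-42 and 0.53 for sup-26. The peak of lin-42, a Period homologue that times molting, ranked 5 in the pooled list, 5 in replicate 1 and 23 in replicate 2. The ranks were 12, 13 and 10 for the 1 peak shared by dct-11 and the Pumilio-family gene puf-9, 6, 10 and 6 for pqn-41, and 17, 14 and 13 for sup-26, an RNA-binding protein gene. Only the bet-2 and sup-26 peaks of these lay in intergenic sequence, that of sup-26 2006 bp upstream of its gene. The shared peak lay in a non-coding exon 299 bp upstream of the puf-9 start, nearer than the 414 bp of bet-2. Those of lin-42 and pqn-41 lay in introns. The sup-26 replicate summits were 155 bp apart, against 145 bp at bet-2 and 19, 99 and 24 bp at lin-42, the shared peak and pqn-41. A core word lay within 100 bp of the summit in each of these peaks but that of sup-26.

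**Figure D5:**
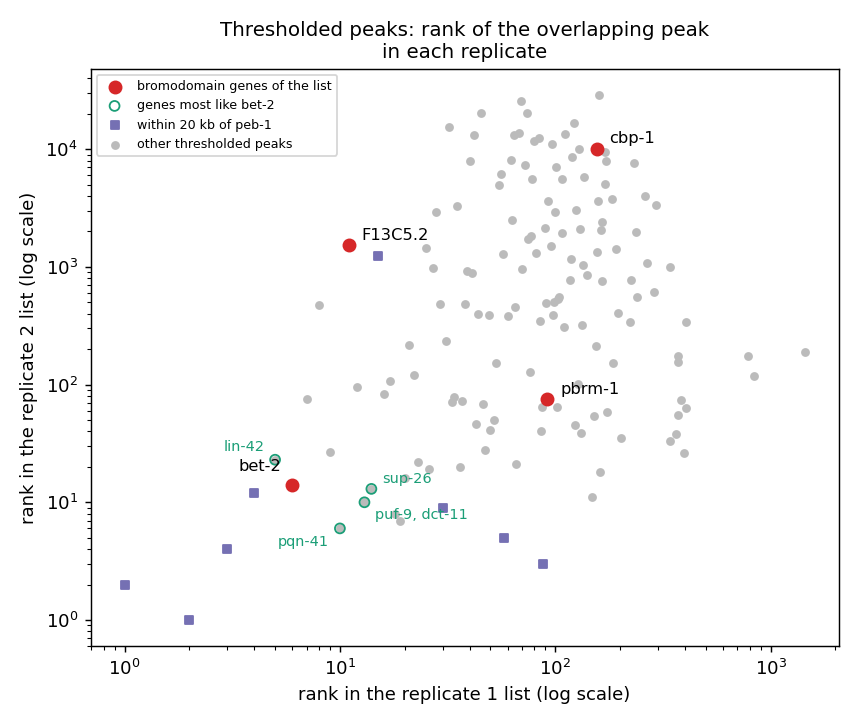
Rank of the overlapping peak in replicate 1 (x axis, log scale) and replicate 2 (y axis, log scale) for the 149 thresholded peaks found in both. The bet-2 peak lies in the low left corner at 6 and 14 beside those of lin-42, pqn-41, dct-11 with puf-9, and sup-26, while F13C5.2 and cbp-1 lie high, at replicate 2 ranks of 1523 and 10110.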

How the data were processed

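Analysis began from the deposited peak lists of the ce11 build (assembly WBcel235). These are a relaxed list of each replicate, a relaxed list of the pooled reads, and a thresholded list, which per the accompanying file listing comes from the irreproducible discovery rate procedure. The aligner, the peak caller, tool versions, the rate threshold and read depth were not given in the sources used here. A control experiment is named in the labels as a possible control and was not analysed here. The fragment size range is 150 to 350 bp, per the labels. The signal of a peak (column 7) was deposited by the authors as peak height, and since its scale is unstated it was compared only within a list. Column 9, nominally a −log10 q-value by the file format, was deposited by the authors with values below 0 for many pooled peaks, so it is called a score here and settled only ties in rank.

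Genes came from Ensembl release 115 (19973 protein-coding, mitochondrial genes left out), with 644 symbols filled in from RefSeq. Positions are 1-based. Overlap meant at least 1 bp. Candidates "other than thresholded" overlap none of the thresholded peaks. Words were searched on both strands within 100 bp of the summit in the ce11 genome. Python 3.11.15 with pandas 2.3.3, numpy 2.4.6 and matplotlib 3.10.9 was used, and the assignment of peaks to windows was tested on simulated data. Named were the members, genes in their windows, listed genes with a thresholded peak and the 5 best of those without, and the 5 genes most like bet-2 by Euclidean distance of log10 ranks; other listed genes were named after their values were seen. Members and lists were chosen with earlier results of these data known, and the consensus YDTGCCRW is recalled from published work on PEB-1. With 1 group of 2 replicates no test was made.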

Additional observations from a re-analysis of the deposited data

How the results depend on the processing

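Of 45 alternatives 33 moved the value by less than the SD between replicates (ranks) or by at most 1.5 times (counts and shares). For bet-1, whose replicate ranks lie far apart, that tolerance is wide. Ranks from 1 replicate alone were judged against the SD of those same 2 ranks. At bet-2 the replicate 1 summit is also the pooled one. Some outcomes were thus fixed in advance, and the 33 is no measure of robustness. The bet-2 window kept 1 thresholded peak and the bet-1 window 0 with narrower and wider windows, the 80 highest peaks, any overlap with the window, and the 160 highest peaks of either replicate alone. The share of protein-coding genes with a thresholded peak was 0.401% for 1000 bp upstream to 200 bp downstream of a transcript start, 2.33% for 10000 bp upstream to 5000 bp downstream and 0.566% for the 80 highest peaks. With those 80 peaks 2 listed genes had one, and with 1 replicate alone 2 to 4 had. The rank of bet-2 was 6 to 14 with 1 replicate alone, 7 in the ce10 lists and by the score column, and, chosen after seeing the data, 3 without the peaks near peb-1. In the ce10 list of replicate 2 the bet-2 peak ranked 18. The rank of bet-1 was 1537 to 13107 with 1 replicate alone and 6158 by the score column. Where summits had to lie within 100 bp, 1 replicate shared the best pooled peak at bet-2 and 1 at bet-1; with an overlap of at least 0.5 of the peak it was 2 at bet-2 and 1 at bet-1. Core words at bet-2 numbered 2 within 200 bp, and copies of GAGAGA 1 within 50 bp and 4 within 200 bp. A list of the genes whose RefSeq product names a bromodomain was added after seeing the data. Of these 10 genes, 3 had a thresholded peak, against 1.19% of protein-coding genes. They were bet-2, which was picked for its peak, F13C5.2 and pbrm-1, so nothing is read from this count. For bet-1 the ce10 lists were not run, as no ce10 annotation was used here. No paired analysis was possible because there is 1 group and no test. Read depth was not given, so what it limits could not be assessed.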

Other observations

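Genes that RefSeq names as bromodomain genes but that were not on the list include K07E3.1, on the X chromosome, with a best pooled rank of 452. The best ranks in its window were 522 in replicate 1 and 1811 in replicate 2, not necessarily of the same peak. F59E12.1 had a best pooled rank of 2381 and C54G4.2 one of 8036.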
